A study of Homo sapiens with 3 samples.

Results

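The genes described here encode the proteins of the mitochondrial ribosome, or mitoribosome. They were chosen by name: every probe set annotated to a single gene whose symbol is MRPL (large subunit) or MRPS (small subunit) followed by a number. This gave 140 probe sets for 75 genes, 48 of the large and 27 of the small subunit, out of 54613 probe sets and 19775 named genes on the arrays. The RefSeq annotation holds 77 such symbols, and the 2 others, MRPL53 and MRPS24, were read by probe sets annotated to a second gene as well.

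Expression was measured in IMR-90 cells, a line of human fetal lung fibroblasts, 24 h after transfection with 1 of 3 siRNAs in serum-containing medium. The siRNAs labelled SETD8-1 and SETD8-2 (SETD8 siRNA 1 and 2 in what follows) target KMT5A, better known as SETD8 or PR-Set7, a histone H4 methyltransferase. The third was the control siRNA, labelled GL3. Each siRNA had 1 array, so no value has a replicate error, no p-value is given, and a culture's or an array's own deviation cannot be told apart from the effect of its siRNA. Both SETD8 siRNAs were set against the same control array, so a deviation of that array enters both comparisons. In such bulk RNA, fewer cells of a type and less RNA per cell cannot be told apart.

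Mitoribosomes sit at the inner mitochondrial membrane and make the few proteins encoded by mitochondrial DNA, nearly all of them core subunits of the respiratory chain and ATP synthase. Their RNAs are encoded in mitochondria, but all of their proteins are encoded in the nucleus, made in the cytosol and imported. Some descend from proteins of the bacterial ribosome, and others joined it during the evolution of mitochondria.

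The labels were checked first. KMT5A, the targeted gene, had a signal of 431.4 with SETD8 siRNA 1, 584.1 with SETD8 siRNA 2 and 938.9 with the control siRNA on its brightest probe set (45.9% and 62.2% of control). Its other probe sets were lower by less, at 68.6% to 74.7% of control with SETD8 siRNA 1 and 73.5% to 86.3% with SETD8 siRNA 2. All were thus lower on both arrays labelled for it, by an amount that depended on the probe set. The 8 fibroblast markers, among them COL1A1, THY1 and VIM, had signals between 877.1 and 36638.9 on all arrays, whereas the 3 measured leukocyte markers were all below the filter on low signal described below. The 6 epithelial markers summed to 111.7, 286.6 and 217.6 on the arrays of SETD8 siRNA 1, SETD8 siRNA 2 and control, and the 4 endothelial markers to 1543.2, 2171.6 and 1361.5. Most of the endothelial sum was TEK (1274.8, 2033.1 and 1251.3), while PECAM1 (135.0, 52.7 and 49.0) and VWF (130.5, 80.9 and 59.7) were highest with SETD8 siRNA 1 and CDH5 was at most 4.9. The part of these markers in the results was not tested.

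The start regions of these genes carry short sequences that help to place them among nuclear genes for mitochondria. RefSeq promoter windows of GRCh38.p14, 250 bases before to 50 bases after the start of transcription, were at hand for 67 of the 75 genes. They were searched on both strands for the letters GCATGCGC (NRF1, nuclear respiratory factor 1), CCGGAAG (the ETS family, which includes the GABP factor) and AAGATGG (YY1), all factors known to act on genes for mitochondrial proteins. The following stretches belong to MRPL57 and to some of the members that stand at the edges of the results below. Each of these edge members carries a motif, which does not hold for all members at the edges. The stretches run 5′ to 3′ along the gene's own strand with the motif letters in capitals.
MRPL17, chr11:6683341-6683440, minus strand, the 100 bases before the start: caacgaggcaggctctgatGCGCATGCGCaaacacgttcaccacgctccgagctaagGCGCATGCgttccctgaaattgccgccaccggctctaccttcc
MRPL48, chr11:73787774-73787873, plus strand, the 100 bases before the start: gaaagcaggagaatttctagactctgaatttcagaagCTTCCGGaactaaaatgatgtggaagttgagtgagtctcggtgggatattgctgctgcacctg
MRPS31, chr13:40771191-40771290, minus strand, the 100 bases before the start: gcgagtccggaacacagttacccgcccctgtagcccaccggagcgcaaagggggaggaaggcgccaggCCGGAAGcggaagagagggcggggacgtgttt
MRPL36, chr5:1799854-1799883, minus strand, 30 bases around its motif: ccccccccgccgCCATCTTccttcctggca
MRPL57, chr13:21176558-21176657, plus strand, the 100 bases before the start: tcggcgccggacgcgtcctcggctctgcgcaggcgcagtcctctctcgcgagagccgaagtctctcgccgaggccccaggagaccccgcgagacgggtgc

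MRPL17 carried the NRF1 letters 3 times, counted over both strands, in 2 stretches. MRPL48 and MRPS31 carried the ETS letters once each and MRPL36 the YY1 letters once, each in the orientation shown. The MRPL57 stretch held none of them and is shown because another gene starts at its far end. The other members with the largest shared changes described below were mixed. Of the lower ones, MRPL11 carried the YY1 letters, while MRPL1 and MRPS9 carried no motif. Of the higher ones, MRPS21 carried the ETS letters at 2 sites, MRPL45 the YY1 letters and MRPL32 the NRF1 and YY1 letters. MRPL4 and MRPL55 carried no motif. The printed stretches thus do not link a motif to a direction.

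Across the 67 members with a window, the YY1 letters were present in 22 (32.8%), against 7.61% of the windows of 10031 genes tested and 6.06% of all 27305 windows. The ETS letters were present in 28 members (41.8%), against 19.3% of genes tested and 10.7% of all windows, and the NRF1 letters in 6 (8.96%), against 5.46% and 3.27%. At least 1 of the 3 was found in 42 members (62.7%), with near-equal shares in both subunits: 26 of 41 large subunit genes (63.4%) and 16 of 26 small subunit genes (61.5%). In 9 members both the ETS and YY1 letters occurred, and in none did these 2 motifs overlap. A match of letters describes the sequence and does not show that a factor is bound.

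Fold changes of members with and without each motif were as follows, with no test. With the YY1 letters (22 genes) the median log2 fold change was 0.16 on the array of SETD8 siRNA 1 and -0.01 on that of SETD8 siRNA 2. In the 45 genes without them it was -0.04 and -0.14. With the ETS letters (28 genes) the medians were -0.05 and -0.11, against 0.03 and -0.16 in the 39 genes without them. The 6 genes with the NRF1 letters had medians of 0.11 and -0.05, against -0.01 and -0.14 in the 61 without them. The SD over genes within these groups was 0.21 to 0.30.

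All 75 members passed the filter on low signal, a mean of at least 5.39 on the log2 scale (a signal of 42.0), that left 12307 genes to compare. Of the 75, 42 lay in the highest quartile of signal among those genes, 29 in the third and 4 in the second. Each gene was read by its brightest probe set, and 46 members were read by a probe set whose suffix marks it as shared with related transcripts, so that near-identical copies such as pseudogenes could add to their signal.

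Mitoribosomal genes stayed close to the control with either SETD8 siRNA. No member was 2-fold lower or 2-fold higher with SETD8 siRNA 1, where 7.75% and 5.48% of all genes tested were, and none with SETD8 siRNA 2, where 6.65% and 4.46% were. A 2-fold lower signal shared by both siRNAs was seen in 3.23% of all genes and a 2-fold higher one in 1.5%, but in none of the 75. Within 1.5-fold of the control lay 73 of 75 members (97.3%) with each siRNA, against 70.8% of all genes with SETD8 siRNA 1 and 73.7% with SETD8 siRNA 2.

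The narrow spread held against genes of like signal. In the highest signal quartile, 40 of 42 members (95.2%) were within 1.5-fold of the control with SETD8 siRNA 1, against 82.0% of the 3077 genes of that quartile, and 41 (97.6%) with SETD8 siRNA 2, against 85.9%. In the third quartile it was 29 of 29 with SETD8 siRNA 1, against 74.5% of 3076 genes, and 28 of 29 (96.6%) with SETD8 siRNA 2, against 78.6%. The SD of the log2 fold changes in the highest quartile was 0.25 and 0.24 over members (SETD8 siRNA 1, then 2), where over the genes of that quartile it was 0.57 and 0.47. Over all members it was 0.26 and 0.25, and over all genes tested, many of them of lower signal, 0.82 and 0.70.

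**Figure D1:**
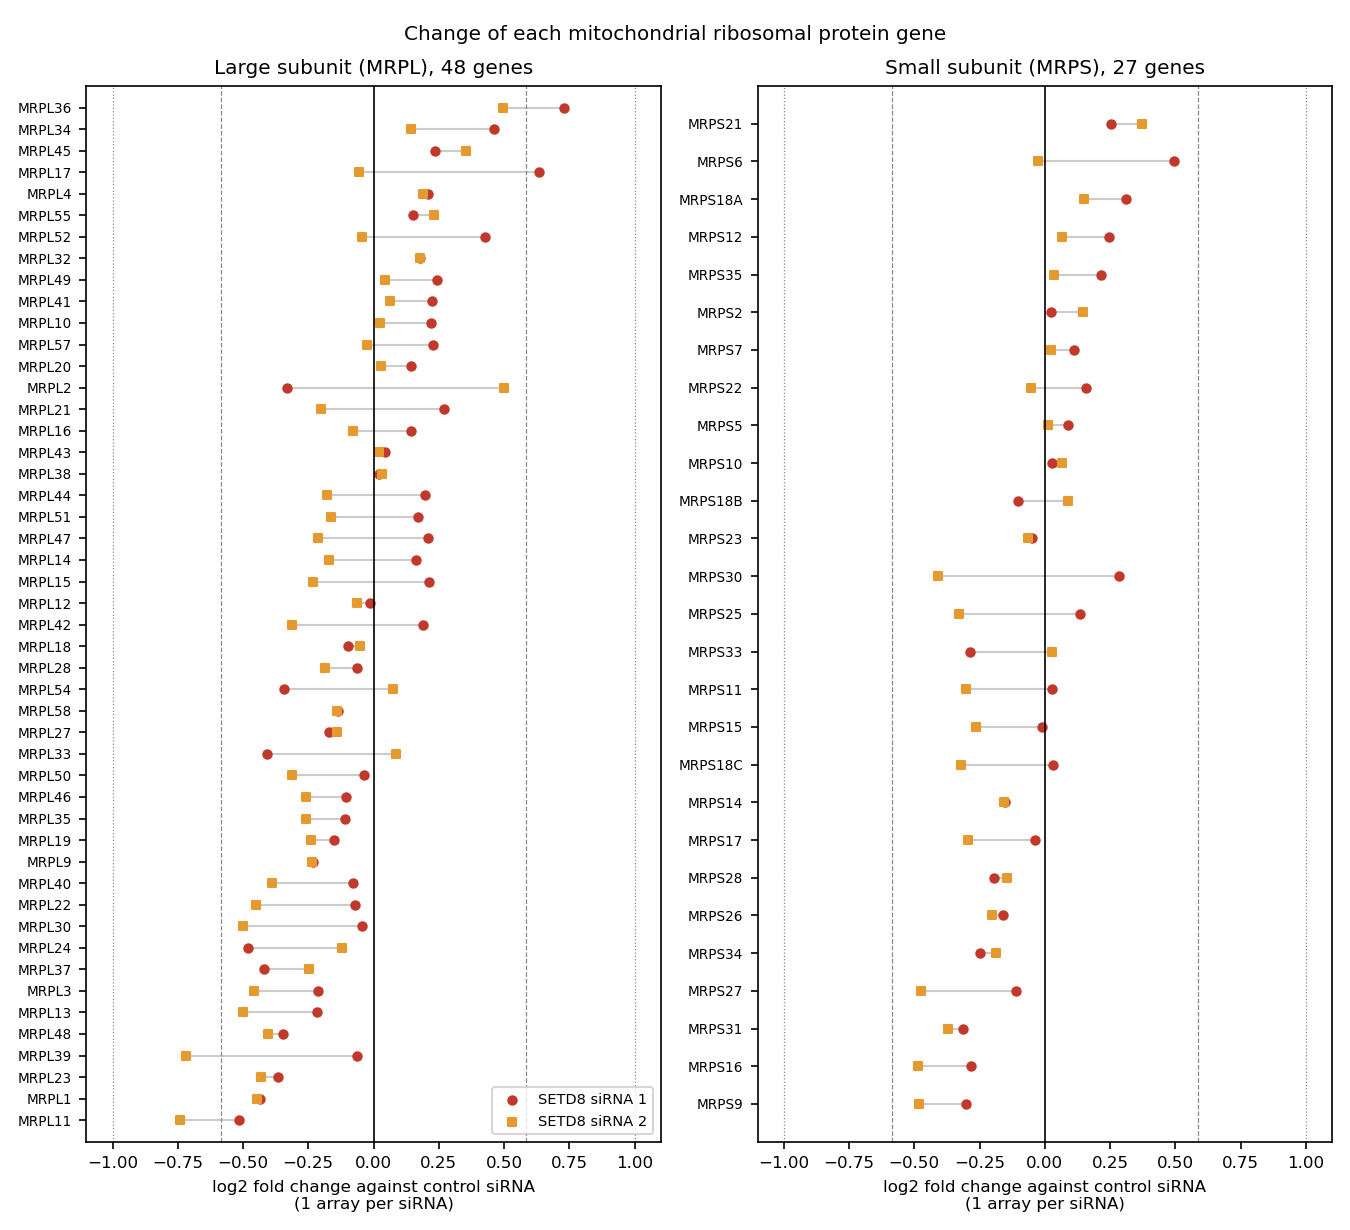
Log2 fold change of each of the 75 genes against the control siRNA (x axis, 1 array per siRNA), with SETD8 siRNA 1 as circles and SETD8 siRNA 2 as squares, large subunit left and small subunit right, sorted by the sum of both changes. Dashed lines mark 1.5-fold and dotted lines 2-fold: no point reaches 2-fold, and only MRPL36, MRPL17, MRPL11 and MRPL39 have a point beyond 1.5-fold.

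With SETD8 siRNA 1 the centre of the members depended on the probe sets used. With the brightest probe set of each gene the median log2 fold change was -0.01 (99.3% of the control signal), 38 members were lower and 37 higher, and 51.6% of all genes tested were lower. Without shared probe sets, which left 40 members, the median was -0.10 and 65.0% were lower, against 52.8% of genes, and with averaged probe sets it was -0.06 and 58.7%, against 54.0%. With SETD8 siRNA 2 the median was -0.14 (90.5% of control), and 50 members (66.7%) were lower, against 51.1% of all genes, whose median was -0.01. Without shared probe sets 62.5% were lower with SETD8 siRNA 2, so the excess over SETD8 siRNA 1 in this share was then absent. Set directly against each other, the array of SETD8 siRNA 1 was above that of SETD8 siRNA 2 in 58 of 75 members (77.3%), where 50.2% of all genes were, with a median difference of 0.16 on the log2 scale (SD over members 0.26). The same order held in 38 of 51 ribosomal proteins of the cytosol (74.5%, median difference 0.04), so it was not particular to mitoribosomal genes. Among the lists read below it held in 15 of 18 mitochondrial transcription genes, 10 of 14 translation factors and 16 of 27 assembly factors. It held in 10 of 18 tRNA charging genes, and in 0 of 4 mitoribosome proteins without an MRP symbol. These comparisons are between 2 single arrays and use the brightest probe sets.

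Direction was mixed when both siRNAs were required. Lower with both by any size were 33 members (44.0%), against 33.9% of all genes, and higher with both were 20 (26.7%), against 31.1%. A further 17 (22.7%) were lower with SETD8 siRNA 2 but higher with SETD8 siRNA 1, against 17.2% of all genes, and 5 (6.67%) were the reverse, against 17.7%.

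The 2 subunits did not part. Large subunit genes had medians of -0.03 with SETD8 siRNA 1 and -0.15 with SETD8 siRNA 2 (SD over 48 genes 0.28 and 0.27), and small subunit genes 0.02 and -0.14 (SD over 27 genes 0.21 and 0.23), where all genes tested had -0.02 and -0.01. Lower with SETD8 siRNA 2 were 33 of 48 large subunit genes (68.8%) and 17 of 27 small subunit genes (63.0%). By the brightest probe set, all 4 members beyond 1.5-fold with either siRNA belonged to the large subunit, which holds 48 of the 75 members. Within 1.5-fold with each siRNA were 46 of 48 large and 27 of 27 small subunit genes. Of all genes, 70.8% were with SETD8 siRNA 1 and 73.7% with SETD8 siRNA 2. Dimmer probe sets of the small subunit genes MRPS14 (-0.82 with SETD8 siRNA 1), MRPS31 (-0.67 with SETD8 siRNA 2) and MRPS5 (0.85 with SETD8 siRNA 2) also passed 1.5-fold. MRPS18A and MRPS30 carry small subunit names but sit in the large subunit of the human mitoribosome, and with both moved there the medians were 0.00 and -0.15 for 50 large subunit genes, and -0.01 and -0.14 for 25 small subunit genes.

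**Figure D2:**
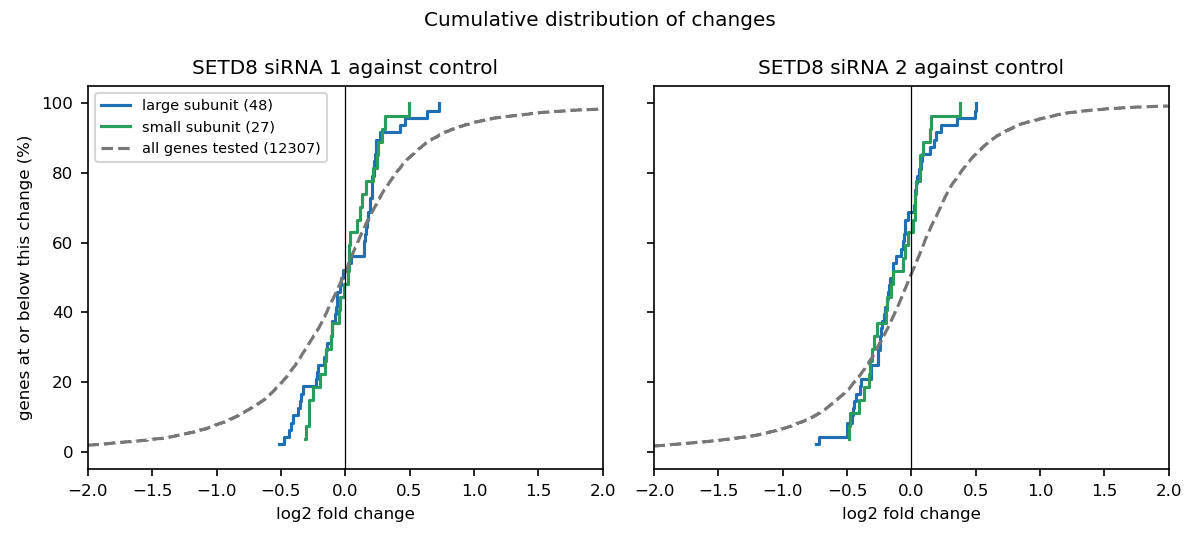
Cumulative share of genes (y axis, percent) at or below each log2 fold change (x axis), for large subunit genes, small subunit genes and all 12307 genes tested, with SETD8 siRNA 1 left and SETD8 siRNA 2 right. Both subunits rise steeply within 1.5-fold of the control, and with SETD8 siRNA 2 both are centred left of zero, at medians of -0.15 and -0.14.

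Members were also grouped by descent. The 47 with a counterpart in the bacterial ribosome had medians of -0.01 with SETD8 siRNA 1 and -0.14 with SETD8 siRNA 2 (SD 0.28 and 0.27), and the 28 found in mitochondria but not in bacteria had -0.01 and -0.17 (SD 0.23 and 0.22). Genes were assigned to named parts of the large subunit from general knowledge. These lists may not be complete, and the shares could change with other genes counted in. Of 6 genes assigned to the central protuberance (MRPL18, MRPL38, MRPL40, MRPL46, MRPL48 and MRPL58), 5 were lower with both siRNAs. This compares with 44.0% of all members and 33.9% of all genes tested, and the medians were -0.10 and -0.20. The 6 genes assigned to the tunnel exit (MRPL17, MRPL22, MRPL23, MRPL24, MRPL45 and MRPL47) had medians of 0.07 and -0.17. Lower with SETD8 siRNA 1 were 3 of 6, against 50.7% of all members and 51.6% of all genes. With SETD8 siRNA 2 it was 5 of 6, against 66.7% and 51.1%. In the central protuberance, MRPL58, which also acts as a peptidyl-tRNA hydrolase that frees stalled ribosomes, had a log2 fold change of -0.14 with each siRNA.

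Of the members lower with both siRNAs, MRPL11 was furthest from the control. MRPL11, the counterpart of bacterial L11 at the base of the stalk where translation factors bind, had a signal of 924.9 with SETD8 siRNA 1, 791.6 with SETD8 siRNA 2 and 1321.7 with the control siRNA. Its log2 fold changes were -0.52 (70.0% of control) and -0.74 (59.9% of control), so it passed 1.5-fold with SETD8 siRNA 2 alone. It was read by 1 probe set, which has a shared suffix. In all, 2 of 75 members were at least 1.5-fold lower with SETD8 siRNA 2, against 14.7% of all genes, and none with SETD8 siRNA 1, against 16.4%.

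The other stalk genes did not share the lower signal of MRPL11. MRPL12, the counterpart of the L7/L12 stalk protein, had 1834.0 with SETD8 siRNA 1, 1771.8 with SETD8 siRNA 2 and 1853.5 with the control siRNA, and MRPL10, which anchors it, had 1697.5, 1481.6 and 1456.4 on the same arrays. The 3 arrays were close for both genes, with MRPL10 slightly higher with SETD8 siRNA 1. MRPL54, at the same stalk, had 2027.1 with SETD8 siRNA 1, 2707.0 with SETD8 siRNA 2 and 2570.5 with the control siRNA, so only SETD8 siRNA 1 was low.

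A further 5 genes made up the 6 with the largest decrease shared by both siRNAs. MRPL1, of the mobile L1 stalk where spent tRNA leaves the ribosome, had 1622.6 with SETD8 siRNA 1, 1607.7 with SETD8 siRNA 2 and 2192.2 with the control siRNA (-0.43 and -0.45). MRPL23, at the exit of the peptide tunnel, had 2543.9, 2431.5 and 3275.7 (-0.36 and -0.43), but 0.67 and 0.02 once averaged with its second probe set, which was below the filter. MRPL48, of the central protuberance, had 997.4, 960.1 and 1269.6 (-0.35 and -0.40). In each of these the SETD8 siRNA arrays lay close together and below the control array. In the small subunit, MRPS31, which has no bacterial counterpart, had 956.4 with SETD8 siRNA 1, 917.2 with SETD8 siRNA 2 and 1186.9 with the control siRNA (-0.31 and -0.37), and its second probe set above the filter gave -0.15 and -0.67. MRPS9, whose bacterial counterpart reaches with its tail to the tRNA in the P site, had 1039.5, 916.4 and 1281.0 (-0.30 and -0.48). All 5 stayed within 1.5-fold with both siRNAs.

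Among the higher members, MRPL36 stood alone. MRPL36, the counterpart of the small zinc-binding protein L36 of bacteria, had 12559.2 with SETD8 siRNA 1, 10675.5 with SETD8 siRNA 2 and 7570.7 with the control siRNA. Both SETD8 siRNA arrays were above the control, by 1.66-fold and 1.41-fold (0.73 and 0.50 on the log2 scale). MRPL36 was read by 1 probe set, which has a shared suffix. The probe sets used for MRPL11, MRPL17 and MRPL39, the other members past 1.5-fold with either siRNA, have such a suffix as well. Only 2 of 75 members were at least 1.5-fold higher with SETD8 siRNA 1, against 12.7% of all genes, and none with SETD8 siRNA 2, against 11.6%. At 1.5-fold with both siRNAs there was no member in either direction, where 7.38% of all genes were lower and 4.6% higher.

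The next shared increases were smaller. MRPS21, the counterpart of bacterial S21, had 6982.4 with SETD8 siRNA 1, 7597.1 with SETD8 siRNA 2 and 5861.8 with the control siRNA (0.25 and 0.37). MRPL45, which lies at the tunnel exit and helps to hold the mitoribosome at the inner membrane, had 1042.2, 1130.1 and 884.7 (0.24 and 0.35), and it has a pseudogene, MRPL45P2, whose own probe set had a signal of at most 1.8. In both genes the control array was the lowest of the 3. MRPL4, whose bacterial counterpart lines the peptide tunnel, MRPL32, which is cut by the m-AAA protease after import before it can be assembled, and MRPL55 completed the 6. MRPL4 had 564.0 with SETD8 siRNA 1, 555.6 with SETD8 siRNA 2 and 487.8 with the control siRNA (0.21 and 0.19), but its other probe sets gave -0.08 and -0.14 with SETD8 siRNA 1. MRPL32 had 4262.0, 4259.1 and 3768.9 (0.18 and 0.18), and MRPL55 had 1085.1, 1145.5 and 976.5 (0.15 and 0.23). All 3 lay within 1.5-fold of the control.

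**Figure D3:**
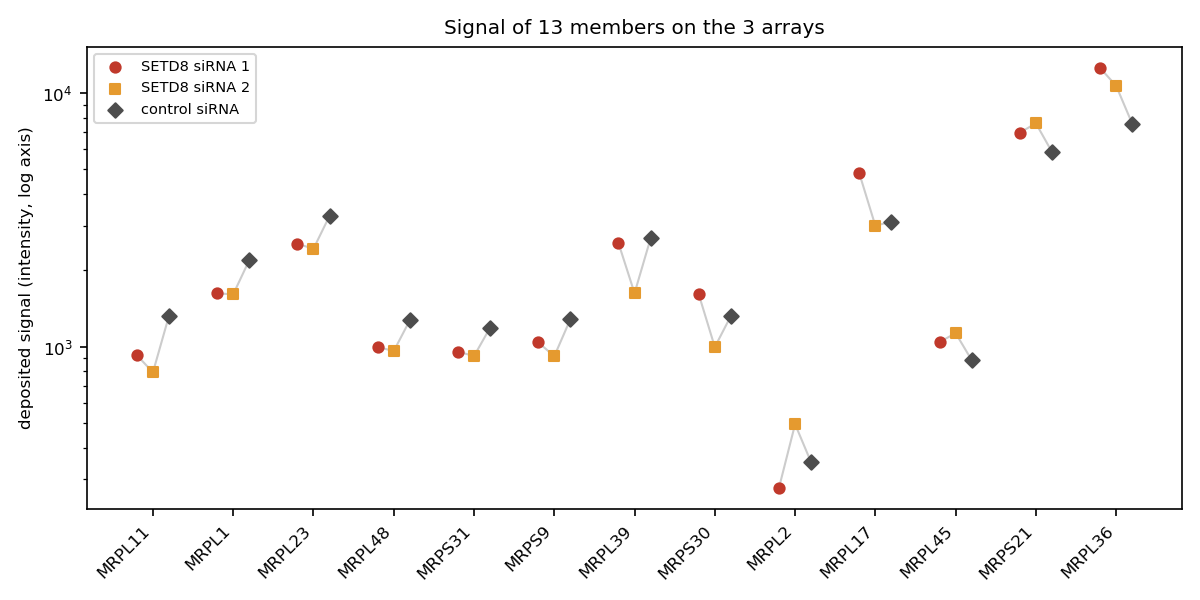
Deposited signal (y axis, log scale) of 13 members on the arrays of SETD8 siRNA 1 (circles), SETD8 siRNA 2 (squares) and control siRNA (diamonds). The 6 genes on the left, from MRPL11 to MRPS9, are lower on both SETD8 siRNA arrays, MRPL45, MRPS21 and MRPL36 are higher on both, and MRPL39, MRPS30, MRPL2 and MRPL17 have 1 SETD8 siRNA array apart from the other.

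Some members differed between the 2 siRNAs. At least 1.5-fold above SETD8 siRNA 2 on the array of SETD8 siRNA 1 were 3 members, against 13.5% of all genes, and at least 1.5-fold below was 1, against 14.3%. None was 2-fold above or below, where 6.38% and 6.18% of all genes were. MRPS30 had 1607.1 with SETD8 siRNA 1, 995.9 with SETD8 siRNA 2 and 1321.5 with the control siRNA, so the control lay between them. Its other probe sets gave differences of 0.31 and 0.17 (siRNA 1 minus siRNA 2), against 0.69 for this one. MRPL17, at the tunnel exit and with the NRF1 letters shown above, had 4824.0, 2996.8 and 3113.0, so SETD8 siRNA 1 alone was high (0.63 on the log2 scale). MRPL39, which has no bacterial counterpart, had 2558.8, 1624.7 and 2671.9, so SETD8 siRNA 2 alone was low (-0.72).

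SETD8 siRNA 1 was below SETD8 siRNA 2 in the other 17 members. MRPL2, the counterpart of the L2 protein next to the peptidyl transferase centre, had 278.0 with SETD8 siRNA 1, 494.3 with SETD8 siRNA 2 and 349.6 with the control siRNA, a difference of -0.83 on the log2 scale (siRNA 1 minus siRNA 2). Its second probe set gave 130.6, 143.4 and 139.3, which lie close together, so the difference was seen on 1 probe set. MRPL33 had 6052.7, 8525.2 and 8031.9, low with SETD8 siRNA 1 alone, as was MRPL54 above.

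The remaining members lay between these edges. MRPL3 and MRPL20 had, with MRPL36, the highest mean signals in the family. MRPL3 had 8209.7 with SETD8 siRNA 1, 6921.5 with SETD8 siRNA 2 and 9517.1 with the control siRNA, and MRPL20 had 8126.2, 7511.5 and 7356.6 on the same arrays. MRPL3 was thus low with SETD8 siRNA 2 (-0.46), and MRPL20 stayed near the control (0.14 and 0.03). Of the 3 genes that descend from bacterial S18, MRPS18A had 1228.4 with SETD8 siRNA 1, 1100.3 with SETD8 siRNA 2 and 990.4 with the control siRNA, so both were above the control (0.31 and 0.15). MRPS18B had 2259.0, 2580.6 and 2426.7 (-0.10 and 0.09), but its other probe set gave -0.20 and -0.25, lower with both. MRPS18C had 2943.5, 2305.1 and 2876.6 (0.03 and -0.32), low with SETD8 siRNA 2 alone. MRPS12, of the decoding centre, had 0.25 and 0.07. Over all 75, log2 fold changes ran from -0.52 to 0.73 with SETD8 siRNA 1 and from -0.74 to 0.50 with SETD8 siRNA 2.

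Probe sets of the same gene give a measure of how far such small changes can be read. Of the 140 probe sets, 124 passed the filter, and 28 genes had several (77 probe sets). Within these genes the pooled SD of the log2 fold change between probe sets was 0.23 with SETD8 siRNA 1 and 0.26 with SETD8 siRNA 2, about as large as the SD of 0.26 and 0.25 between members. All probe sets of a gene had the same sign in 13 of 28 genes with SETD8 siRNA 1 and in 17 of 28 with SETD8 siRNA 2. The 2 SDs were not taken at like signal, since members were read by their brightest probe set and the other probe sets were dimmer. The second of MRPL47, for example, had 48.5, 48.0 and 62.4. Over these probe sets, differences between single members were no larger than those between probe sets of 1 gene, and at the signal of the brightest ones this was not tested.

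Some of the genes whose probe sets shared a direction with 1 or both siRNAs were as follows. All 5 probe sets of MRPL30 were lower with SETD8 siRNA 2, at -0.69 to -0.39, while with SETD8 siRNA 1 they ran from -0.40 to 0.04. The 3 probe sets of MRPL19 were lower with both siRNAs, from -0.50 to -0.15 and from -0.80 to -0.24, as were the 3 of MRPL35, from -0.49 to -0.11 and from -0.42 to -0.23. Both probe sets of MRPL9 lay at -0.22 to -0.24 with each siRNA. In the other direction, both probe sets of MRPS18A were higher, at 0.31 with SETD8 siRNA 1 and at 0.04 and 0.15 with SETD8 siRNA 2. In contrast, the 4 probe sets of MRPS15 ran from -0.44 to 0.46 with SETD8 siRNA 2, and the 2 of MRPS14 differed by 0.67 with SETD8 siRNA 1.

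**Figure D4:**
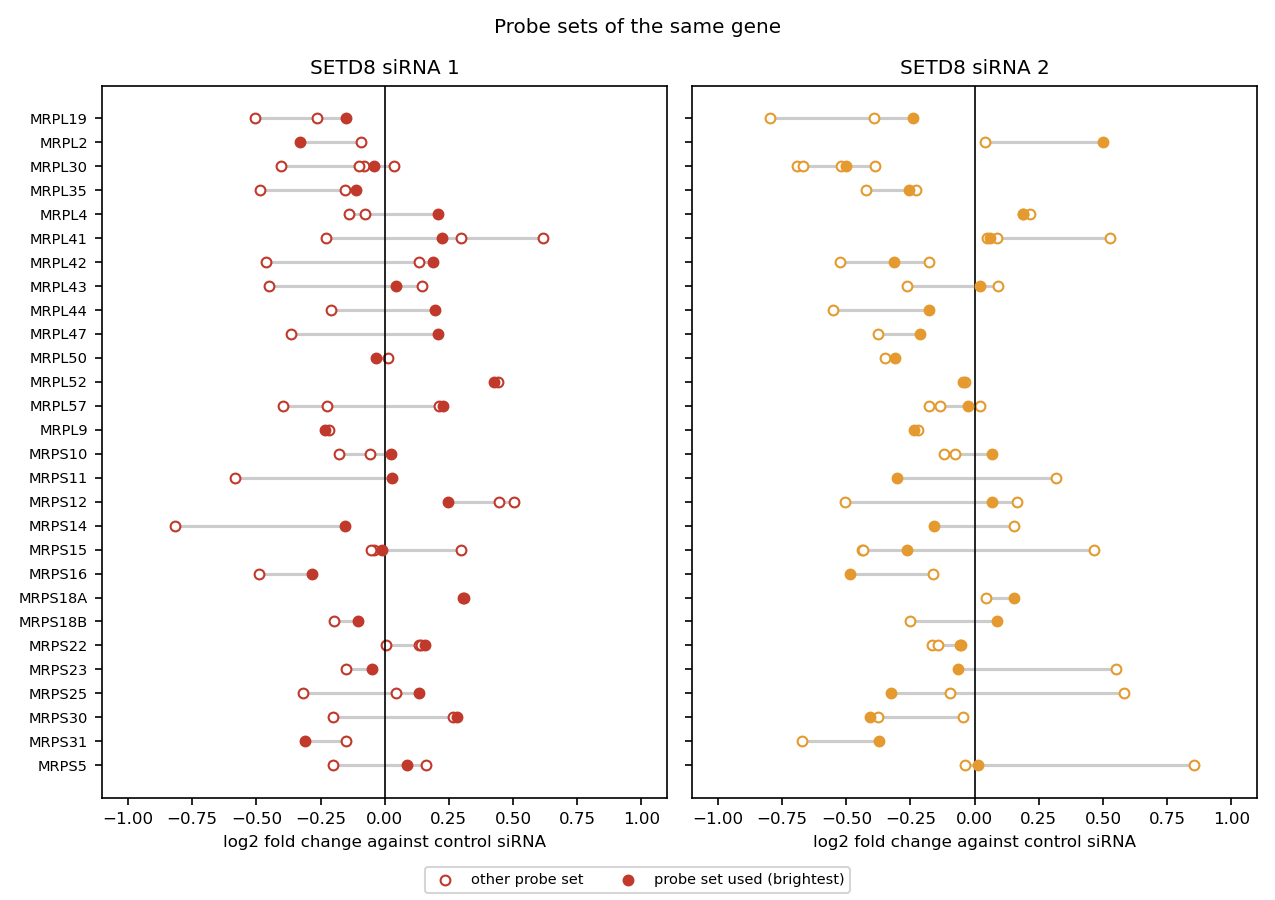
Log2 fold change against the control siRNA (x axis) for every probe set above the filter in the 28 members that have several, with SETD8 siRNA 1 left and SETD8 siRNA 2 right. Filled points are the brightest probe set, used elsewhere, open points the others, and lines span the range, which reaches 0.85 with SETD8 siRNA 1 (MRPL41) and 0.91 with SETD8 siRNA 2 (MRPS25).

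Many mitoribosomal genes start back to back with another gene. Of the 67 members with a window, 18 (26.9%) had a protein-coding gene on the other strand that starts within 1000 bases and points away, against 14.4% of the 10031 genes tested. MRPL46 and MRPS11, 1 gene of each subunit, are such neighbours of each other, 320 bases apart, and MRPS12 lies 181 bases from SARS2, the mitochondrial seryl-tRNA synthetase. MRPL46 had log2 fold changes of -0.10 and -0.26 on the arrays of SETD8 siRNA 1 and 2, MRPS11 had 0.03 and -0.30, and SARS2 had -0.10 and -0.07. The second MRPS11 probe set above the filter, of low signal (53.2, 99.4 and 79.8), gave -0.58 and 0.32, the opposite directions.

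In 2 pairs the neighbour was much lower and the mitoribosomal gene was not. SKA3, a kinetochore subunit that couples chromosomes to spindle microtubules, starts 106 bases from MRPL57, across the stretch printed above. SKA3 had a signal of 207.0 with SETD8 siRNA 1, 193.1 with SETD8 siRNA 2 and 723.7 with the control siRNA (28.6% and 26.7% of control), while MRPL57 had 8201.4, 6880.8 and 7002.5 (0.23 and -0.03 on the log2 scale). The 4 probe sets of MRPL57 ran from -0.40 to 0.23 and from -0.18 to 0.02. NCAPD2, a condensin subunit that compacts mitotic chromosomes, starts 840 bases from MRPL51. NCAPD2 had 261.6 with SETD8 siRNA 1, 190.1 with SETD8 siRNA 2 and 968.8 with the control siRNA (27.0% and 19.6% of control), while MRPL51 had 8353.4, 6639.8 and 7432.6 (0.17 and -0.16).

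Both neighbours were read by 1 probe set each. By the brightest probe set, they were the only 2 of the 17 neighbours past the filter that were 2-fold or 1.5-fold lower on both SETD8 siRNA arrays. Of all genes tested, 3.23% were 2-fold lower and 7.38% were 1.5-fold lower on both. None of the 17 was 1.5-fold higher on both, against 4.6% of all genes. EME1, a subunit of a nuclease that cuts branched DNA, starts 45 bases from MRPL27 and had log2 fold changes of -0.52 and -0.62 on those arrays, against -0.17 and -0.14 for MRPL27, and its second probe set gave -0.79 and -0.72, past 1.5-fold on both. MITD1, which acts in cell abscission, starts 126 bases from MRPL30, and both genes were near the control with SETD8 siRNA 1 (0.08 and -0.04) and lower with SETD8 siRNA 2 (-0.61 and -0.50). Higher by 1.5-fold with SETD8 siRNA 1 alone were HELQ next to MRPS18C (0.98 and 0.47), PIERCE1 next to MRPS2 (0.70 and 0.08) and APBA3 next to MRPL54 (0.68 and 0.31). Of all genes tested, 12.7% were higher by 1.5-fold with SETD8 siRNA 1. The probe sets of HELQ ran from -0.15 to 0.98 and from -0.57 to 0.47.

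**Figure D5:**
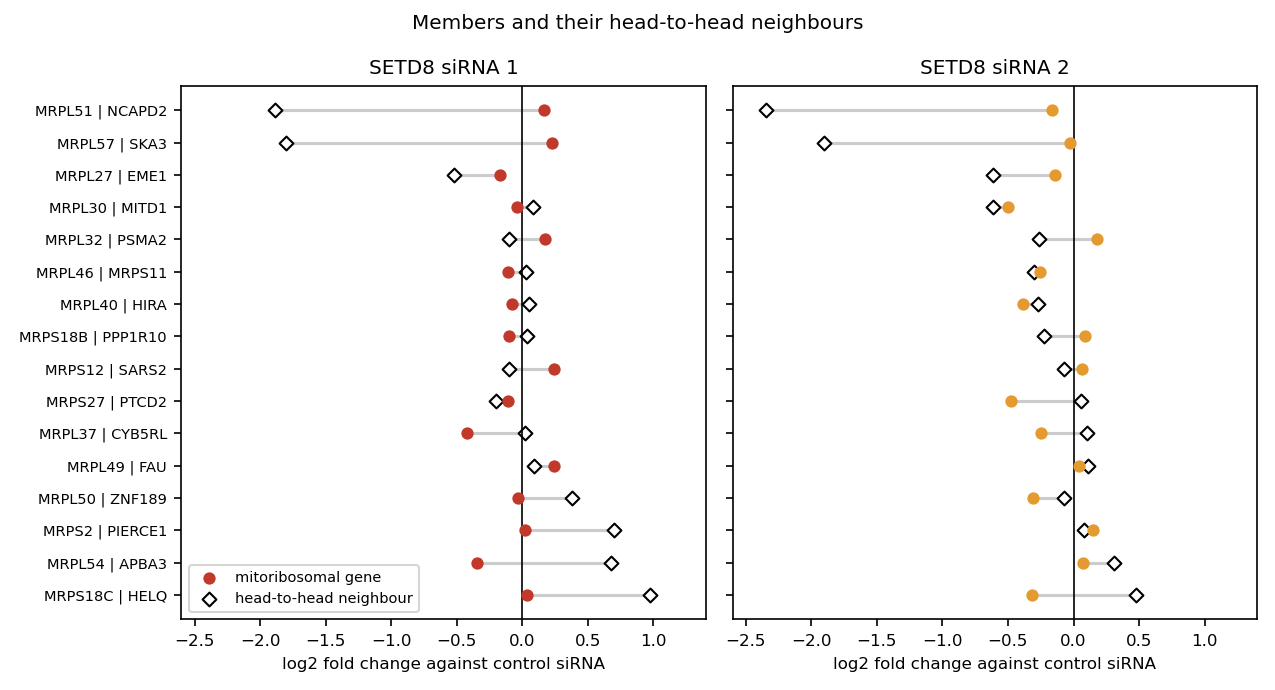
Log2 fold change against the control siRNA (x axis) of members (filled circles) and of the gene that starts back to back with each (open diamonds), for 16 pairs whose neighbour passed the filter, with SETD8 siRNA 1 left and SETD8 siRNA 2 right. NCAPD2 and SKA3 lie between -1.81 and -2.35, while MRPL51 and MRPL57 stay between -0.16 and 0.23.

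The machinery around the mitoribosome was read from lists of its known parts. Of 4 measured mitoribosome proteins that lack an MRP symbol, none passed 1.5-fold with either siRNA on its brightest probe set. PTCD3 of the small subunit had log2 fold changes of -0.33 and -0.28 on the arrays of SETD8 siRNA 1 and 2, DAP3, a GTP-binding small subunit protein, had 0.12 and 0.33, CHCHD1 0.15 and 0.31, and GADD45GIP1 of the large subunit -0.30 and -0.07. For DAP3 the probe set without a shared suffix gave -0.70 and -0.88, so its direction is not settled. The other probe sets of PTCD3 above the filter ran from -0.06 to 0.03 and from -0.19 to 0.15, so they did not repeat its shared decrease. The second of GADD45GIP1 above the filter, of low signal (59.5, 60.2 and 54.1), gave 0.14 and 0.15.

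Assembly factors were also near the control. Within 1.5-fold were 25 of 27 (92.6%) with SETD8 siRNA 1, against 70.8% of all genes, and 27 of 27 with SETD8 siRNA 2, against 73.7%. Their SD over genes was 0.32 and 0.25, against 0.26 and 0.25 for the members. Their medians over 27 tested genes were -0.01 and -0.09. None passed 1.5-fold with both siRNAs, where 7.38% of all genes were lower and 4.6% higher. By any size 12 were lower with both (44.4%), against 33.9% of all genes, and 8 higher (29.6%), against 31.1%. The largest differences shared by both siRNAs were in MTG2, a GTPase of the large subunit (-0.45 and -0.40), MTERF3 (-0.39 and -0.40), METTL15, a methyltransferase of the small subunit rRNA (-0.68 and -0.38), and METTL17 (-0.30 and -0.49). When probe sets were averaged, METTL17 turned to 0.14 with SETD8 siRNA 1, and MTG2 had 0.00 there.

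Translation factors were lower more often. Lower with both siRNAs were 10 of 14 (71.4%), against 33.9% of all genes, with medians of -0.22 and -0.24, and 1 of 14 passed 1.5-fold with both, against 7.38% of all genes. That gene was MTIF2, the initiation factor that brings the first tRNA to the mitoribosome, with 1646.3 with SETD8 siRNA 1, 1504.3 with SETD8 siRNA 2 and 2562.2 with the control siRNA (64.3% and 58.7% of control). GUF1, a GTPase related to elongation factors, had -0.57 and -0.83, MTRFR, which rescues stalled mitoribosomes, had -0.47 and -0.80 (its second probe set, -0.68 and -0.78, passed 1.5-fold with both), and the release factor MTRF1 had -0.32 and -0.54. Of the 18 tested genes for mitochondrial tRNA charging, 12 (66.7%) were lower with both, against 33.9% of all genes, with medians of -0.19 and -0.26. At least 1.5-fold higher with both was 1 of the 18, against 4.6% of all genes. The higher one was the methionyl-tRNA synthetase MARS2, at 258.3 with SETD8 siRNA 1, 191.2 with SETD8 siRNA 2 and 96.0 with the control siRNA. Lower signals were also seen for GATB (-0.56 and -0.51) and GATC (-0.33 and -0.33, but 0.12 and -0.15 on its other probe set), subunits of the enzyme that makes glutaminyl-tRNA in mitochondria, and in the tyrosyl-tRNA synthetase YARS2 (-0.36 and -0.72).

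TFAM and POLRMT, both needed to transcribe mitochondrial DNA, lay on opposite sides of the control. TFAM, which packages mitochondrial DNA and starts its transcription, had 1055.5 with SETD8 siRNA 1, 800.3 with SETD8 siRNA 2 and 1605.1 with the control siRNA (65.8% and 49.9% of control), and its 4 probe sets were all lower, though the one without a shared suffix gave only -0.07 and -0.30. POLRMT, the mitochondrial RNA polymerase, had 483.1, 316.0 and 217.6, higher by 1.15 and 0.54 on the log2 scale. MTERF1, which binds a termination site in mitochondrial DNA, had -0.59 and -0.65, and FASTKD5, which acts on mitochondrial RNA processing, 0.43 and 0.26. Over the 18 tested genes of this list, 2 (TFAM and MTERF1) were lower by 1.5-fold or more on both SETD8 siRNA arrays, against 7.38% of all genes. None was higher by as much on both, against 4.6%, and the medians were 0.05 and -0.08.

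Of 8 tested regulators of mitochondrial gene expression, none passed 1.5-fold with both siRNAs, where 7.38% of all genes were lower and 4.6% higher. With SETD8 siRNA 1, 1 of the 8 was 2-fold higher, against 5.48% of all genes. That gene was PPARGC1B, at 153.8 with SETD8 siRNA 1, 23.5 with SETD8 siRNA 2 and 27.1 with the control siRNA (2.50 and -0.21). Only the first of these signals was above the filter level of 42.0, so it passed the filter through the array of SETD8 siRNA 1. The factors whose letters were searched above included NRF1, at 242.5 with SETD8 siRNA 1, 228.3 with SETD8 siRNA 2 and 322.1 with the control siRNA (-0.41 and -0.50), although its 4 probe sets ran from -0.41 to 0.30 and from -0.58 to 0.26. The GABP subunits GABPA and GABPB1 had 0.13 and -0.24, and -0.12 and -0.45. YY1 had 9899.4 with SETD8 siRNA 1, 8405.4 with SETD8 siRNA 2 and 9531.4 with the control siRNA on its brightest probe set (0.05 and -0.18). ESRRA, a nuclear receptor that acts on mitochondrial genes, had 0.43 and 0.31, and its second probe set gave -2.15 with SETD8 siRNA 2.

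Ribosomal proteins of the cytosol served as the nearest comparison. The 51 that passed the filter had medians of 0.08 with SETD8 siRNA 1 and 0.04 with SETD8 siRNA 2 (SD over genes 0.09 and 0.11), with 51 of 51 within 1.5-fold of the control. Lower with SETD8 siRNA 2 were 18 of these 51 (35.3%), against 50 of 75 mitoribosomal genes (66.7%). The 2 sets were not matched on signal, with median signals of 23856.5 for the cytosolic set and 2182.3 for the mitoribosomal genes. The share lower with SETD8 siRNA 2 also differed by signal among genes tested, at 42.7% in the highest quartile and 53.3% in the third. With single arrays the difference between the 2 sets has no test.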

How the data were processed

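RNA of 3 IMR-90 cultures, 1 per siRNA, was hybridised to 1-colour Affymetrix arrays after labelling from 250 ng of total RNA, per the labels' protocols. The deposited values are linear signal intensity, 1 per probe set. Per the submitters' processing notes the authors used MAS5, whose version and parameters were not given in the sources used here. Without the extreme 2% at either end, the mean was 497 on each array, so no scaling was added. A shift of all genes would be hidden by such scaling, and the number of arrays limits the precision.

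The platform annotation named a single gene for 41091 of the 54613 probe sets; the 1801 with more than 1 gene were dropped, and 11721 had no entry. Symbols were updated to RefSeq of GRCh38.p14 (41037 matched). Values under 11.7, the 25th percentile, were set to it before log2. Each gene was read by its brightest probe set, and genes were kept at or above the median over all probe sets.

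Genes were counted at folds of at least 2 and 1.5, ties included (tolerance 1e-09 on the log2 scale), since 1 array per siRNA allows no test. Members, lists and rules were chosen with earlier results of these data known. Values on all arrays were given for the 6 largest shared changes in each direction, the 3 largest differences between siRNAs each way, the 3 brightest members, the stalk genes and the S18 genes, and values for up to 4 genes of each other list. MRPL58, MRPS12, MRPL19, MRPL30, MRPL35, MRPL9, MRPS5, MRPS14, MRPS15, PPARGC1B, YY1 and all neighbours were named after their values were seen. Counting was tested on simulated data. Python 3.11.15, numpy 2.4.6, pandas 2.3.3 and matplotlib 3.10.9 were used.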

Additional observations from a re-analysis of the deposited data

How the results depend on the processing

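The members were recomputed after quantile normalization or median scaling, with a pseudocount of 16, without a filter or with one at the 75th percentile, with averaged probe sets, shared probe sets left out, each probe set by itself, other folds, and the move of MRPS18A and MRPS30. No member differed 1.5-fold, 2-fold or 3-fold in the same direction on both SETD8 siRNA arrays under any of these. The median over members ran from -0.10 to 0.02 with SETD8 siRNA 1, turning positive after median scaling, and from -0.15 to -0.09 with SETD8 siRNA 2. The share of members lower ran from 48.0% to 65.0% with SETD8 siRNA 1 and from 62.5% to 69.3% with SETD8 siRNA 2, and without shared probe sets the first of these was the larger. Counts past 1.5-fold with 1 siRNA depended on the probe set: with averaged probe sets 5 members were higher with SETD8 siRNA 1, and 1 was lower and 1 higher with SETD8 siRNA 2. Without shared probe sets, which left 40 members, 1 was lower and 0 higher with SETD8 siRNA 1, and 0 lower and 1 higher with SETD8 siRNA 2. Counted by probe set (124), 2 were lower and 3 higher with SETD8 siRNA 1, and 6 were lower and 1 higher with SETD8 siRNA 2. The shares of all genes or probe sets past 1.5-fold were not counted in these settings, so no direction is read from these counts. The cause of their dependence on the probe set was not tested. MRPL23 turned to 0.67 and 0.02 with averaged probe sets. No paired analysis was possible because each siRNA has 1 array.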

Other observations

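Probe sets annotated to a mitoribosomal gene together with a second gene lay outside the selection. The one shared by MRPS24 and the readthrough gene URGCP-MRPS24 had 13007.2 with SETD8 siRNA 1, 7876.6 with SETD8 siRNA 2 and 10186.6 with the control siRNA (0.35 and -0.37 on the log2 scale). The one shared by MRPL53 and CCDC142 had 3438.2, 2634.6 and 3197.1 (0.10 and -0.28). In both, SETD8 siRNA 1 was above and SETD8 siRNA 2 below the control, the order seen in 17 of the 75 members. MRPL20-AS1, a transcript antisense to MRPL20, had -0.11 and 0.00.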
